A study of Mus musculus with 6 samples.

Results

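RBM3 and CIRBP are the 2 cold-inducible RNA-binding proteins of mouse cells, and the values below are those of their genes Rbm3 and Cirbp and of Rbm3-ps, a pseudogene copy of Rbm3. The 3 genes were taken by symbol from 46333 genes of the deposited tables. They were chosen by their measured values, the FPKM level in stressed against control libraries in earlier results of the same data, so their difference between the groups is given as a description, with no test. RNA of mouse bone marrow was sequenced in 6 libraries, 3 labelled as negative control and 3 from mice under chronic unpredictable mild stress (CUMS), a procedure of varied mild stressors used to bring about a depression-like state, here for 4 weeks. The labels used here give no strain, sex, age, hour of collection or ambient temperature, and they do not say whether each library came from its own animal, so that the spread between libraries may be technical. The labels name no sorting of cells: in such bulk RNA a higher transcript level may mean more cells of a type or more RNA per cell, which cannot be told apart.

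Both proteins hold an RNA recognition motif followed by a glycine-rich tail. Their transcripts rise when mammalian cells are mildly cooled and fall with warming, so that they follow the daily rhythm of body temperature, and both also respond to other stresses such as low oxygen. RBM3 binds to messenger RNAs and ribosomal subunits and promotes translation; it is also known from dividing progenitor cells and from the protection of synapses in cooled brain. CIRBP moves to stress granules, affects polyadenylation of clock transcripts, and when released from cells acts as an inflammatory signal.

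Rbm3 lies on chromosome X (chrX:8138975-8145880, minus strand, GRCm38), Cirbp on chromosome 10 (chr10:80165990-80172786, plus strand) and Rbm3-ps on chromosome 1 (chr1:150264926-150266073, minus strand), by RefSeq. GENCODE M21 lists 11 transcripts of Rbm3, 6 of them protein coding and 2 marked for nonsense-mediated decay, and 7 of Cirbp, 2 of them protein coding and 1 marked for decay. The deposited values are per gene and do not part these isoforms. The part of the Rbm3 coding sequence that holds every base at which the copy differs (positions 181 to 333, counted from 1 at the A of the start codon) is shown with the same part of the copy, because this likeness limits how far their values can be told apart. Sequences are from GENCODE M21, and capitals mark the bases that differ.
Rbm3 part: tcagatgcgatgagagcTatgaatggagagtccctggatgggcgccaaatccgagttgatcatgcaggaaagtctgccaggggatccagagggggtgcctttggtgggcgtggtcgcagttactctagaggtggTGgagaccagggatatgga
Rbm3-ps part: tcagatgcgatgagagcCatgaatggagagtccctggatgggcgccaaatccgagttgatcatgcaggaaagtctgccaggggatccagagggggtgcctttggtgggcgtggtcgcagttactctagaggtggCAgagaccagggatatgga
Over the 465 bases of the coding sequence 3 differed, T198C, T315C and G316A, with the base of Rbm3 first. Over these bases the copy was therefore 99.4% identical, with an unbroken identical run of 197 bases. Only the 465 bases that GENCODE M21 lists for the copy were compared, while its RefSeq span is 1148 bases. Of the 315 stretches of 151 bases, the read length, 47 (14.9%) were the same in both. How reads that fit both places were assigned is not given in the sources used here.

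The coding sequences of Rbm3 and Cirbp, by contrast, were 72.8% identical over 453 aligned bases, with no identical run longer than 11 bases. Their first 252 bases, 84 codons that hold the RNA recognition motif, are shown to let the relatives be compared, again with differing bases in capitals.
Rbm3 first part: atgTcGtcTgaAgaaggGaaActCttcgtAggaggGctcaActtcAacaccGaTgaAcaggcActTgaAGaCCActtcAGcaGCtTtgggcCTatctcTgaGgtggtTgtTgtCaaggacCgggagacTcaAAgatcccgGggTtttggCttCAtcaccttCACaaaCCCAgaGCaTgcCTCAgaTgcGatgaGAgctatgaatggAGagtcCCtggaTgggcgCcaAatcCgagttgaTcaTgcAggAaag
Cirbp first part: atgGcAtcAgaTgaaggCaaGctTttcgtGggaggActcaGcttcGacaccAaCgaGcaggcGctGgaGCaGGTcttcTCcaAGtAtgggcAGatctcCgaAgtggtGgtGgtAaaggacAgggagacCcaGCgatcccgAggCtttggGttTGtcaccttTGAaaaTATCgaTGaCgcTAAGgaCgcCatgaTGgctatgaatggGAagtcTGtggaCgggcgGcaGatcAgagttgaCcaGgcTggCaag
In this stretch 72 bases differed (71.4% identical), 46 of them at the third position of a codon.

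The promoter table from RefSeq (GRCm38.p6) held 1 of the 3 genes, Cirbp, with a window for start 1 and a window for start 2. The part of the start 1 window ahead of the first exon base that GENCODE M21 lists in it is shown (chr10:80167589-80167777, plus strand). It lies inside the span of the gene, which starts farther upstream, at 80165990. It is shown because the letters TCCCCGCC are known from Cirbp as a mild-cold responsive element.
Cirbp upstream: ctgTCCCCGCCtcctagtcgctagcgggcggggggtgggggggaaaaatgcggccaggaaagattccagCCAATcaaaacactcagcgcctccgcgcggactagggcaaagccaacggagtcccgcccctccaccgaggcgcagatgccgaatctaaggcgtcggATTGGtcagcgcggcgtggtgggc
Capitals mark TCCCCGCC, which occurred once, and CCAAT, the box bound by NF-Y, which occurred once on each strand; the 2 motifs did not overlap. The start 2 window (chr10:80167921-80168220) held neither motif on either strand. Searched on both strands, TCCCCGCC was in 5.4% and CCAAT in 37.4% of the 32851 promoter windows of the table. GAANNTTC, a core of the heat shock element, was not in the Cirbp windows and was in 7.9% of all windows. These are matches of letters only.

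Rbm3 was an abundant transcript of marrow and its level was close to doubled in the CUMS libraries. FPKM of Rbm3, fragments scaled by transcript length and by the total of the library, was 145, 111 and 107 in control replicates 1, 2 and 3, and 237, 242 and 227 in CUMS replicates 1, 2 and 3. Every CUMS library was above every control library, the lowest CUMS value being 1.57 times the highest control value, and control replicate 1 stood above the other controls. The means were 121 ± 20.8 and 235 ± 7.52 FPKM (SD, n = 3 libraries each), a ratio of 1.95. On log2(FPKM + 1) the difference was 0.97 (SE 0.129 from limma). It was the 51st largest increase among the 12302 genes tested, those with 1 FPKM or more in 3 or more libraries, and Rbm3 ranked 297th of them by mean level.

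Rbm3-ps, which carries no known function of its own, was lower in level and differed in the same direction. Its FPKM was 10.8, 8.58 and 8.69 in the controls and 17.5, 15.0 and 17.3 in CUMS replicates 1, 2 and 3. The groups did not overlap here either, and control replicate 1 was again the highest control. The means were 9.37 ± 1.27 and 16.6 ± 1.39 FPKM, a ratio of 1.77 (log2 difference 0.77, SE 0.12). In the 6 libraries Rbm3-ps stood at 6.20% to 8.11% of the FPKM of Rbm3, at 7.77% ± 0.318 in controls and 7.06% ± 0.756 in CUMS. With the 2 rows summed, the level was 130 ± 22.1 FPKM in controls and 252 ± 6.63 in CUMS, a ratio of 1.93, beside 1.95 for Rbm3 alone.

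Cirbp was less abundant than Rbm3 and differed less. Its FPKM was 25.5, 29.4 and 28.1 in the controls and 35.2, 36.4 and 35.1 in CUMS replicates 1, 2 and 3. The CUMS libraries all lay above the controls, but the lowest of them was only 1.2 times the highest control, and control replicate 1 was here the lowest control. The means were 27.7 ± 1.96 and 35.6 ± 0.705 FPKM, a ratio of 1.29 (log2 difference 0.35, SE 0.0896), which was the 656th largest increase. FPKM is scaled by length, so the levels of the genes can be compared: Rbm3 was at 5.67, 3.77 and 3.81 times the level of Cirbp in the controls and at 6.74, 6.64 and 6.46 times in CUMS.

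**Figure D1:**
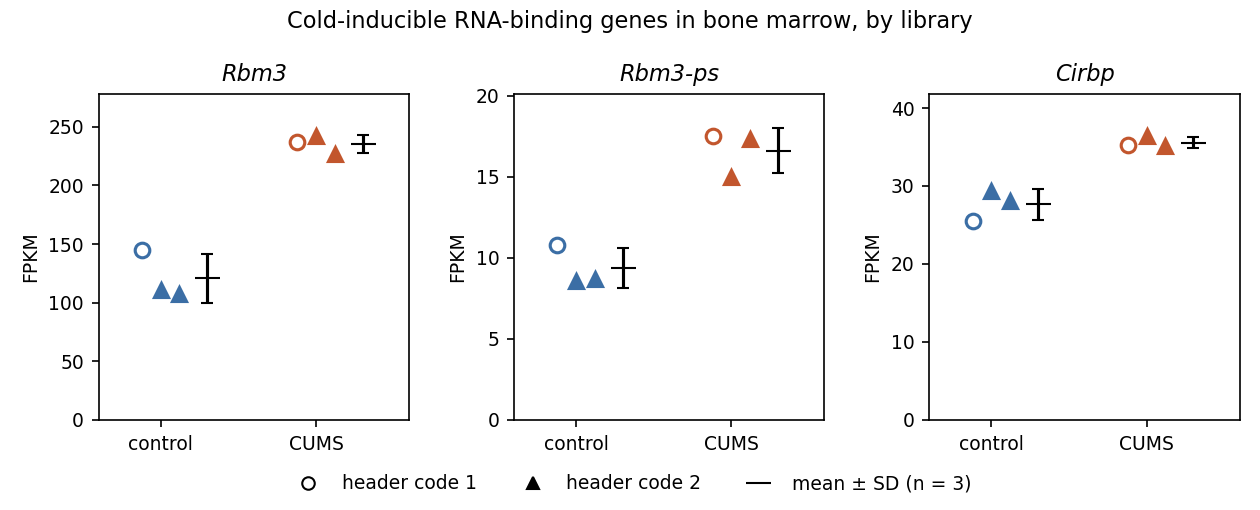
FPKM of Rbm3, Rbm3-ps and Cirbp in each of the 6 libraries (circles, header code 1; triangles, header code 2), with mean and SD of the 3 libraries of each group; each panel has its own axis from 0. In every panel the 3 CUMS libraries lie above the 3 controls, from 227 to 242 against 107 to 145 for Rbm3, and control replicate 1 is the highest control for Rbm3 and Rbm3-ps and the lowest for Cirbp.

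For all 3 genes the CUMS libraries lay above the controls without overlap, which was also true of 1230 of the 12302 tested genes (10.0%; 12.1% had all CUMS libraries below). As this difference chose the genes, nothing is read from the count. The file headers carry a code that is 1 in both libraries numbered 1 and 2 in the remaining 4; its meaning is not stated, and it was not used in choosing the genes. Within code 1 (1 library per group) CUMS was at 1.64 times the control for Rbm3, 1.62 times for Rbm3-ps and 1.38 times for Cirbp. Within code 2 (2 libraries per group) it was at 2.15, 1.87 and 1.24 times. Since the groups did not overlap, the direction could not differ between the codes, and nothing is read from it. The ratio was larger in code 2 for Rbm3 and Rbm3-ps and in code 1 for Cirbp.

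The code itself was tested in a limma fit with group and code as terms. Code 2 minus code 1 was −0.21 on log2(FPKM + 1) for Rbm3 (SE 0.0917, adjusted p = 0.113), −0.21 for Rbm3-ps (SE 0.0862, adjusted p = 0.105) and 0.09 for Cirbp (SE 0.0683, adjusted p = 0.325). None passed at an adjusted p under 0.05, while 3747 of all tested genes did (30.5%). The unadjusted p was 0.0488 for Rbm3, 0.0441 for Rbm3-ps and 0.209 for Cirbp. Without CUMS replicate 1 the code difference of Rbm3 was −0.41 (limma adjusted p = 0.00807), but code 1 was then control replicate 1 alone, the highest control, which the fit assumes to vary like the other libraries. Without control replicate 1 it was −0.02. With libraries scaled to the same total that of Cirbp was 0.25 (limma adjusted p = 0.0333).

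Rbm3os, a noncoding RNA, is transcribed from the opposite strand of Rbm3 and shares 94 exonic bases with it. Since the use of strand in counting is not stated, reads of this stretch cannot be assigned with certainty. Its FPKM was 1.01, 0.469 and 0.432 in the controls and 1.61, 1.25 and 1.25 in CUMS, at most 0.695% of the value of Rbm3 in any library. The log2 difference was 0.55. Rbm3os reached the minimum level of 1 FPKM in 3 libraries only because its CUMS values were high, so it is described without a test.

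The genes whose values over the 6 libraries ran closest to those of Rbm3 were found by the root mean square difference of centred log2(FPKM + 1). They were Ear6 (0.0871), an eosinophil ribonuclease, Prg2 (0.0919), the major basic protein of eosinophil granules, H1f1 (0.0965), a linker histone, and Igkv14-126 (0.109), an immunoglobulin kappa variable segment, with a further kappa variable segment of family 1 (0.115). For Rbm3-ps this difference from Rbm3 was 0.14, for Cirbp 0.362, and the median of all tested genes was 0.534. Ear6 had 83.9, 64.2 and 71.3 FPKM in the controls and 155, 158 and 150 in CUMS. Like Rbm3 it was highest among the controls in replicate 1, which was also true of the other 4 genes.

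Closest to Cirbp were Tal1 (0.0289), an erythroid and stem cell transcription factor, Txnrd1 (0.035), cytosolic thioredoxin reductase, Nupl1 (0.0366), a nucleoporin, Iars (0.0386), isoleucyl-tRNA synthetase, and Xpot (0.0459), the tRNA exporter. Here the median of all tested genes was 0.252, and Rbm3 (0.362) and Rbm3-ps (0.272) both lay farther from Cirbp than that. Tal1 had 41.6, 46.5 and 46.2 FPKM in the controls and 56.1, 57.0 and 54.2 in CUMS. All 5 genes were lowest among the controls in replicate 1, which again follows from how they were picked. No gene was among the nearest 5 of both Rbm3 and Cirbp.

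**Figure D2:**
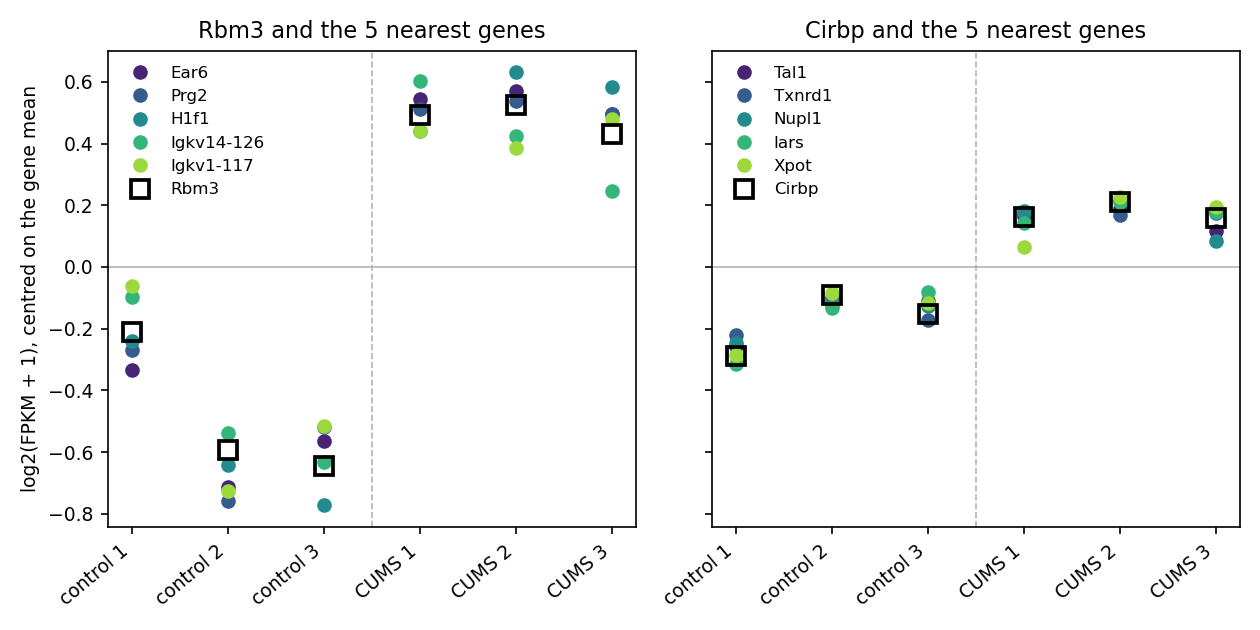
log2(FPKM + 1) of Rbm3 (left) and Cirbp (right), open squares, and of the 5 tested genes nearest to each, filled circles, centred on the mean of each gene; the x axis gives the 6 libraries. Control replicate 1 is the highest control for Rbm3 and its neighbours and the lowest for Cirbp and its neighbours, and the CUMS values lie above all controls. The neighbours were picked by these same values, so their likeness follows from the choice.

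Among the genes named Rbm for an RNA-binding motif, Rbm3 stood out by its level. In each control library it ranked 2nd of the Rbm genes by FPKM, behind Rbm38, an erythroid and p53-induced splicing factor, and in each CUMS library it ranked 1st. Rbm38 averaged 215 ± 1.98 FPKM over the controls and 184 ± 35.1 over CUMS (limma adjusted p = 0.454). Of 30 other Rbm genes that reached the minimum level, Rbm44 did so only through its CUMS libraries and is described without a test. None of the remaining 29 passed limma at an adjusted p under 0.05 (1 had an unadjusted p under 0.05), nor did any with the replicate number as a block in the fit. Of all tested genes 1.07% passed, 0.618% higher and 0.455% lower, and with the block 7.8%, 3.49% higher and 4.31% lower. The 29 lay between −0.3 and 0.22 on the log2 scale.

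Rbm44, known from germ cells, was at 0.257, 0.31 and 0.347 FPKM in the controls and 1.62, 2.22 and 1.77 in CUMS, a log2 difference of 1.13. The groups did not overlap, but a gene at this level entered the tested set only because its CUMS values were high. Rbm4, a regulator of splicing and translation, was at 9.45 ± 0.299 and 7.57 ± 1.23 FPKM, and Rbm42 at 51.5 ± 5.77 and 42.8 ± 4.47 (limma adjusted p = 0.309 and 0.348).

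**Figure D3:**
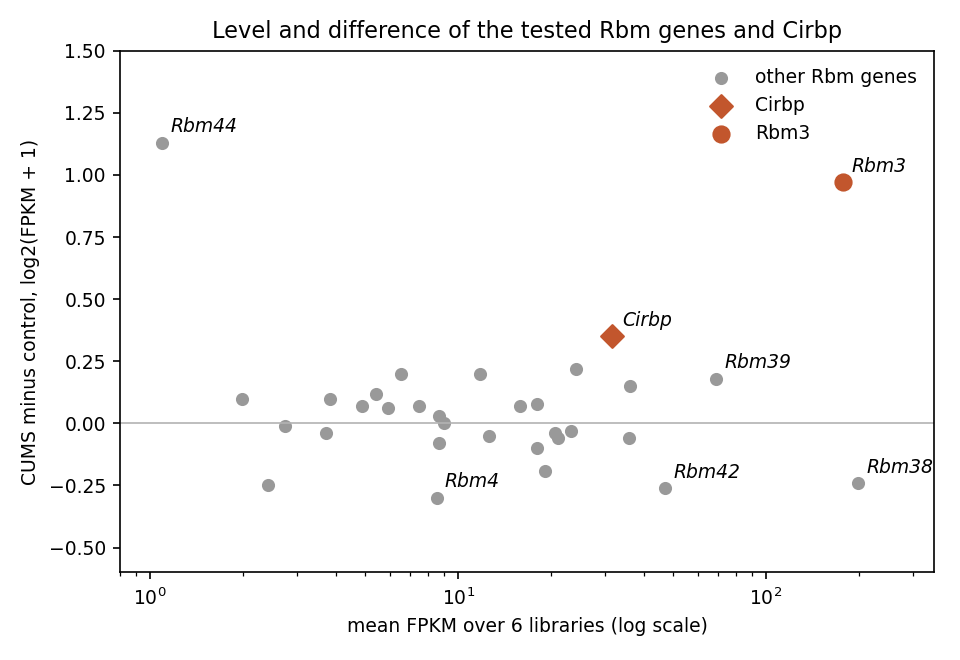
Difference between CUMS and control on log2(FPKM + 1) against the mean FPKM over 6 libraries (log scale) for the 31 tested Rbm genes (circles) and Cirbp (diamond). Rbm3 sits at 178 FPKM and 0.97, Cirbp at 31.6 FPKM and 0.35, and Rbm44 at 1.09 FPKM and 1.13, while the other Rbm genes lie between −0.3 and 0.22.

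Splicing factors and kinases bear on RBM3 because cooling alters the splicing of its transcript and the CLK kinases phosphorylate SR proteins in a temperature-dependent way. None of 19 tested SR proteins and kinases passed in limma (4 had an unadjusted p under 0.05, as did 1898 of all tested genes), and the median log2 difference was 0.06. Clk1 was at 58.0, 64.2 and 56.3 FPKM in the controls and 33.1, 41.8 and 41.2 in CUMS, the groups not overlapping (log2 difference −0.61, limma adjusted p = 0.0613, with the replicate block 0.0122, and 0.00391 to 0.204 over 14 alternatives). Tra2b, a splicing activator, was at 36.0 ± 4.58 and 48.3 ± 3.94 FPKM (0.42, limma adjusted p = 0.152, with the block 0.0267, and 0.0108 to 0.485 over the alternatives). Srsf10 was at 40.4 ± 1.96 and 50.1 ± 3.35 FPKM and Srsf6 at 52.9 ± 0.647 and 60.3 ± 0.634 (limma adjusted p = 0.18 and 0.316).

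The hnRNP proteins, which include the nearest relatives of the pair by domain make-up, gave no call either. None of 21 tested passed in limma (3 had an unadjusted p under 0.05), with a median log2 difference of 0.05. With the replicate block 1 rose and 1 fell, where 3.49% and 4.31% of all tested genes did. Hnrnpu, a nuclear scaffold protein, was at 46.1 ± 3.22 and 70.4 ± 16.1 FPKM (limma adjusted p = 0.173, with the block 0.0362, and 0.0339 to 0.471 over 14 alternatives). Hnrnpa1 was at 173 ± 12.9 and 220 ± 26.3 FPKM and Hnrnpa0 at 130 ± 4.06 and 104 ± 12.5 (limma adjusted p = 0.226 and 0.216).

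Cold-shock domain proteins, such as the Y-box proteins, bind RNA through a fold first known from bacterial cold shock. None of the 5 tested passed in limma (1 had an unadjusted p under 0.05), and the median log2 difference was 0.09. Ybx3 was at 128 ± 9.11 and 143 ± 19.4 FPKM and Lin28a, an RNA-binding protein of early progenitors, at 8.02 ± 0.246 and 6.53 ± 0.549 (limma adjusted p = 0.591 and 0.268).

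Heat shock chaperones move opposite to Rbm3 and Cirbp when temperature alone changes. Of 17 tested none passed in limma (3 had an unadjusted p under 0.05), 11 had values towards higher and 6 towards lower, and the median log2 difference was 0.02 (0.17 without control replicate 1). With the replicate block 2 rose, where 3.49% of all tested genes did. They were Hspd1, the mitochondrial chaperonin, and Dnajb1, a co-chaperone induced by heat. Hspd1 was at 68.4, 52.5 and 53.3 FPKM in the controls and 80.0, 82.8 and 76.1 in CUMS (log2 difference 0.46, limma adjusted p = 0.131, with the block 0.0346, and 0.00291 to 0.433 over 14 alternatives). Dnajb1 was at 25.0 ± 1.68 and 31.0 ± 2.29 FPKM (limma adjusted p = 0.206, with the block 0.0445, and 0.0197 to 0.511 over the alternatives). The 3 genes of the list that did not reach the minimum level, the heat-induced chaperones Hspa1a, Hspa1b and Hspb1, were lower in every CUMS library than in any control and were not tested. The same held for 12.1% of the tested genes, and the share among genes below the minimum level was not taken. For Hspa1b the lowest control was at 0.88 FPKM and the highest CUMS library at 0.874. Any part of temperature in these values was not tested. Hspa1a was at 0.905, 0.841 and 0.938 FPKM in the controls and 0.588, 0.378 and 0.295 in CUMS. Means were 1.02 ± 0.119 and 0.599 ± 0.281 FPKM for Hspa1b and 0.571 ± 0.229 and 0.298 ± 0.0447 for Hspb1. Bag3, a co-chaperone, was at 2.54 ± 0.25 and 1.82 ± 0.368 FPKM (limma adjusted p = 0.307).

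Clock genes were looked at because both transcripts oscillate with body temperature and CIRBP acts on clock transcripts. None of 12 tested passed in limma (2 had an unadjusted p under 0.05), with a median log2 difference of 0.17. Per1, a clock gene that glucocorticoids also induce, was at 2.96, 7.00 and 6.31 FPKM in the controls and 9.77, 16.5 and 15.5 in CUMS, without overlap (log2 difference 1.25, limma adjusted p = 0.0997, with the replicate block 0.0021, and 0.000363 to 0.325 over 14 alternatives). Dbp was at 1.73 ± 0.0338 and 2.72 ± 0.859 FPKM and Nr1d2 at 1.89 ± 0.263 and 2.48 ± 0.262 (limma adjusted p = 0.289 and 0.358). The hour at which marrow was taken, and any part of it in the values of Rbm3 and Cirbp, was not tested.

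A further list held transcripts bound by RBM3 or CIRBP, receptors of released CIRBP and regulators of the pair in earlier work. Of 11 tested 1 rose, where 0.618% of all tested genes did. Trem1, a receptor of released CIRBP on myeloid cells, went from 15.4, 16.6 and 16.0 FPKM in the controls to 24.8, 30.9 and 30.3 in CUMS (log2 difference 0.80, SE 0.108, limma adjusted p = 0.0196). It did not pass once any 1 of the 4 libraries numbered 2 or 3 was left out (limma adjusted p = 0.0759 to 0.117), and after scaling to the same total the list held no call. Ptgs2, cyclooxygenase 2, whose transcript RBM3 stabilizes, was at 4.11 ± 0.9 and 7.72 ± 1.4 FPKM (limma adjusted p = 0.0898, with the replicate block 0.00493, and 0.00153 to 0.317 over 14 alternatives). Ly96, the partner of the CIRBP receptor TLR4, was at 3.50 ± 0.635 and 2.43 ± 0.292 FPKM, and Txn1, thioredoxin, at 204 ± 29.8 and 176 ± 3.79 (limma adjusted p = 0.257 and 0.469). The median log2 difference of the list was 0.01.

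Immediate-early genes, which respond within minutes to stimuli and to handling of tissue, were the list with the most calls. Of 13 tested 5 rose (Fos, Jun, Egr1, Atf3 and Dusp1) and none fell, where 1.07% of all tested genes passed. The median log2 difference of the 13 was 0.61, and 9 rose once the block was added, where 7.8% of all tested genes passed. Fos rose from 175 ± 13.7 to 329 ± 5.24 FPKM (log2 difference 0.91, SE 0.0967, limma adjusted p = 0.00887) and Jun from 16.4 ± 0.774 to 31.3 ± 1.83 (0.89, SE 0.0909, limma adjusted p = 0.00839). No gene of the list passed in the fits lacking any 1 of control replicate 3, CUMS replicate 2 and CUMS replicate 3. There were 2 calls when control replicate 2 was left out, 4 and 5 when CUMS or control replicate 1 was, and 3 after scaling to the same total. The FPKM of the list summed to 928 to 991 among controls and 1360 to 1510 among CUMS libraries, and its part in the values of Rbm3 and Cirbp was not tested.

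**Figure D4:**
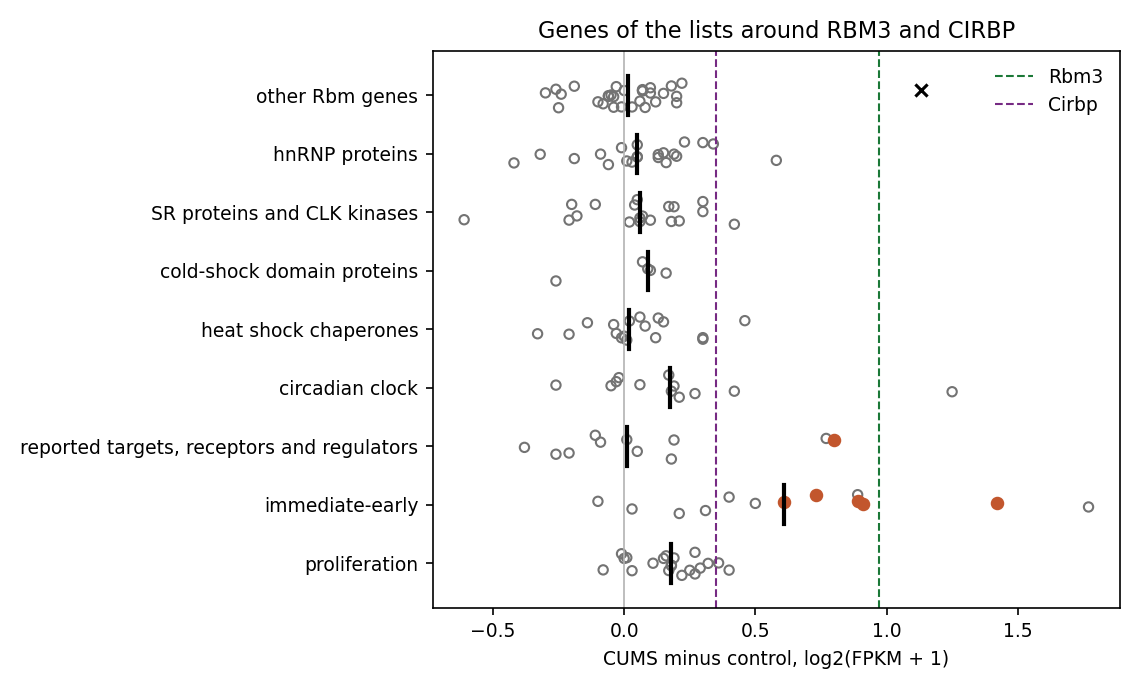
Difference between CUMS and control on log2(FPKM + 1) for each tested gene of 9 lists; filled points passed limma at an adjusted p under 0.05, open points did not, the cross is Rbm44, which has no test, black bars are list medians, and dashed lines mark Rbm3 (0.97) and Cirbp (0.35). The medians of all lists but the immediate-early list (0.61) lie between 0.01 and 0.18, below the line of Cirbp.

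RBM3 is abundant in dividing cells, so genes of DNA replication and mitosis were set beside it. None of 20 tested passed in limma (5 had an unadjusted p under 0.05), 17 had values towards higher, and the median log2 difference was 0.18. With the replicate block 4 rose, Mki67, Mcm3, Rrm2 and Tyms, where 3.49% of all tested genes did. With the header code as a term 5 of the 20 passed, where 1645 of the 12302 tested genes did. In the libraries of code 2 alone (2 per group) 12 passed, where 2173 of all tested genes did. Rrm2, a subunit of ribonucleotide reductase, was at 154, 142 and 149 FPKM in the controls and 189, 186 and 181 in CUMS (log2 difference 0.32, limma adjusted p = 0.138, with the block 0.0362, and 0.0106 to 0.438 over 14 alternatives).

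The libraries had the defining transcripts of marrow, with haemoglobin genes making up 28.8% to 29.2% of all FPKM among controls and 31.7% to 35.2% among CUMS libraries. Erythroid markers did not pass in limma (0 of 10, 1 with an unadjusted p under 0.05; median log2 difference 0.18; their FPKM summed to 164000 to 194000 among controls and 190000 to 233000 among CUMS libraries). Of 8 monocyte markers 2 fell, Csf1r and Cx3cr1 (median −0.39; summed FPKM 1040 to 1240 and 1030 to 1090), 4 fell with the replicate block, and when 1 library was left out Csf1r passed in 1 of 6 fits (without control replicate 1) and Cx3cr1 in 3 of 6 (those lacking a replicate 1 or control replicate 2). Of 7 tested markers of stroma and bone 1 rose, the collagen gene Col1a2 (median 0.34; summed FPKM 86.3 to 88.6 and 107 to 115), which passed only without control replicate 1 among the 6 fits that left out a library; with the replicate block 3 rose. No marker of neutrophils (10 tested), B cells (8), T and NK cells (8) or megakaryocytes (6) passed in limma; 0, 3, 1 and 0 had an unadjusted p under 0.05, and 3 B cell markers fell with the replicate block. On log2(FPKM + 1) values lay towards higher in 10 of 10 erythroid, 8 of 8 T and NK cell and 5 of 7 stroma and bone markers. They did so in 3 of 8 B cell, 2 of 10 neutrophil, 2 of 6 megakaryocyte and 1 of 8 monocyte markers. The T and NK cell count includes Cd3e, which was level (2.79 ± 0.395 FPKM in controls and 2.78 ± 0.0697 in CUMS). The stroma and bone marker Cdh5, towards lower, reached 1 FPKM only in controls. Of all tested genes 0.618% rose and 0.455% fell, and with the replicate block 3.49% rose and 4.31% fell. The part of these cell types in the difference of Rbm3 and Cirbp was not tested.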

How the data were processed

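Whole bone marrow RNA was extracted with TRIZOL and read from both ends, 151 bp each, per the labels' protocols. The authors' deposited values are FPKM, 1 table of 47561 entries per library; the unit is not named and was read from the values, which sum to 561563 to 658595 per library and, times transcript length in kilobases, to 959134 to 1020437. Per the submitters' processing notes the build was mm10 and the tools were HISAT2 2.1, featureCounts 1.6.4, cutadapt 1.16.5, DESeq2 2.11.40.6 and bcl2fastq 2.19; which of them made the values, and any use of strand, is not given in the sources used here. The deposited values are not read counts, so depth is unknown and no counting interval is given. No 2 tables were identical.

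Tests used limma-trend (limma 3.58.1, R 4.3.3) on log2(FPKM + 1) with group as the term, Benjamini-Hochberg adjustment over 12302 genes and a threshold of 0.05; 132 genes passed, 57.6% of them higher (39.2% after scaling to the same total). The fit was tested on simulated data. Sequences came from GENCODE M21 and RefSeq (GRCm38) and were aligned with Biopython 1.88. Replicate numbers in the titles were checked as pairs: deviations from group means correlated by 0.689, 0.452 and 0.363 for equal numbers, and by 0.459 and 0.362 for replicates 2 and 3 crossed, so the replicate block is given where it changes a call. Its source is the data, not a label. In each list the 4 members with the smallest p and every called member could be named, with the 5 nearest genes for Rbm3 and Cirbp; Mki67, Mcm3, Hspa1a, Hspa1b and Hspb1 were named after their values were seen. The genes and lists were chosen with earlier results of these data known.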

Additional observations from a re-analysis of the deposited data

How the results depend on the processing

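Rbm3, Rbm3-ps and Cirbp kept the direction of their difference in all 14 alternatives, but most of these could not have turned it. None of the differences moved by more than the SD between libraries pooled over both groups. Leaving out 1 library gave log2 differences of 0.89 to 1.10 for Rbm3, 0.71 to 0.87 for Rbm3-ps and 0.30 to 0.40 for Cirbp; the other 8 alternatives gave 0.93 to 1.10, 0.73 to 0.83 and 0.31 to 0.37. Since the groups did not overlap, leaving out libraries or changing the constant added to FPKM could not turn the sign. The replicate block, the header code term and the lack of a filter left the difference itself unchanged. Only rescaling could have turned it: to the same total, without haemoglobin and mitochondrial genes, or by quantile normalization. In that order it gave 0.93, 0.99 and 0.95 for Rbm3, 0.73, 0.78 and 0.76 for Rbm3-ps, and 0.31, 0.37 and 0.37 for Cirbp.

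The number of genes called between CUMS and control (132) was 43 with no filter on low values, 199 with quantile normalization, 959 with the replicate block, 1645 with the header code as a term and 2173 in the libraries of code 2 alone; leaving out 1 library gave 17 to 262, and each fit but that without control replicate 1 gave fewer than 132. The number called for the header code (3747) was 2278 with no filter and 1728 to 3396 when 1 library was left out, the fewest without control replicate 1. The replicate block changed no list count beyond those given above. The cause of these shifts was not tested. With 3 libraries per group and unknown depth, precision rests on the spread between libraries alone.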
